A study of Mus musculus with 12 samples.

Results

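The 10 genes described here are immediate early response genes measured in mouse liver: Egr1, Fos, Jun, Junb, Atf3, Ier2, Ier3, Btg2, Dusp1 and Zfp36. They are 10 of the 46078 gene rows of the count table, and all 10 were among the 13054 rows tested after a filter on low counts. The members were chosen on measured values: Egr1 was among the genes most lowered after weight-matched food restriction, and the other 9 are textbook relatives of Egr1 in the same response. The difference between the weight-matched and the freely fed sham mice is therefore given below as a description, from which no p is read for any member. For Egr1 the comparisons of VSG with either sham group are descriptions too, since both sham groups entered its choice.

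The study set out to find whether a sleeve gastrectomy changes the fatty liver beyond what the lost weight alone does. Male C57BL/6J mice (C57BL/6 in the labels) aged 21 weeks with diet-induced obesity (DIO) were compared in 3 groups, all of which had an abdominal operation and a gel diet around it. VSG mice had most of the stomach removed as a vertical sleeve gastrectomy. Sham-WM mice, "Sham cal res" in the labels, had sham surgery and were then given restricted food so that their weight followed that of the VSG mice. Sham-Ad lib mice had sham surgery and then ate freely. Whole livers were taken on day 16 after 5 h without food, and 4 mice of each group were sequenced, so that each library is 1 mouse, named here by its animal number. No group without surgery and no chow-fed group was analysed here. An abdominal operation, the anaesthetic and the obesogenic diet were thus shared by all groups, whereas the removal of stomach was particular to VSG.

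Immediate early genes are switched on within minutes of a stimulus, without new protein synthesis, by kinases of the MAP kinase and cyclic AMP pathways that act on factors already sitting on the promoters. Their transcripts are short-lived, and many encode transcription factors (Egr1 and the AP-1 subunits Fos, Jun and Junb) or brakes on the same response (the phosphatase Dusp1, the mRNA-decay factor Zfp36). In liver the genes are known for their induction by growth factors, cytokines, feeding hormones, partial hepatectomy and the handling of the tissue.

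The promoter stretches of 4 members are shown because these genes had the low and the high values that the comparisons below turn on, or share a motif with one that did. They are the 250 bases before the RefSeq start (RefSeq, GRCm38.p6) of Fos at chr12:85473640-85473889 on the plus strand, Junb at chr8:84978749-84978998 on the minus strand and Btg2 at chr1:134079156-134079405 on the minus strand. For Dusp1, 203 bases at chr17:26508520-26508722 on the minus strand are given, because the 47 bases nearest the start lie in exons of longer annotated transcripts. Each runs 5′ to 3′ along its gene, and capitals mark the motifs found in full, a TATA box in Fos, a cyclic AMP response element in Btg2 and Dusp1, and an EGR site in Btg2.
Fos: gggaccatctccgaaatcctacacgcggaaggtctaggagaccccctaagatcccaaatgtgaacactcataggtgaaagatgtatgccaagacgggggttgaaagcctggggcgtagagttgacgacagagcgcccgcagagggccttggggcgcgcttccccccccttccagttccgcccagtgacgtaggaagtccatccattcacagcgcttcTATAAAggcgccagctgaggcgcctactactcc
Junb: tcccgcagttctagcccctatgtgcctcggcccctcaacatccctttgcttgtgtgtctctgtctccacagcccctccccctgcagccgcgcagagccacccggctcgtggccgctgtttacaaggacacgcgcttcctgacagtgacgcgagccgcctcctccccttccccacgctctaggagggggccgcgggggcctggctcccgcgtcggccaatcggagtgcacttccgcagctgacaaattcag
Btg2: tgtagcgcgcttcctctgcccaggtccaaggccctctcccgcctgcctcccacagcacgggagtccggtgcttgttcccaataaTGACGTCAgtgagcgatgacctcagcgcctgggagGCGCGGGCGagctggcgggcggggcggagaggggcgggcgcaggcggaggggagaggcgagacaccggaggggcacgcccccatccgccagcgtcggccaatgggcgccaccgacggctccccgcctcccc
Dusp1: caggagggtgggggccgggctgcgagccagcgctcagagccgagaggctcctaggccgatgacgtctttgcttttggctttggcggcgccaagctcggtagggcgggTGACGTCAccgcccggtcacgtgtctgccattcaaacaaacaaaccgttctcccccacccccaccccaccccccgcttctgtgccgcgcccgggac

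The table of promoters held 8 of the 10 members, all but Egr1 and Ier2. Both strands of the 250 bases were searched for 6 motifs, and the share of all 32851 windows that held each is given beside the members' count. The palindromic cyclic AMP response element TGACGTCA, the site of CREB proteins, stood in 2 of the 8 windows, Btg2 and Dusp1, and in 1.55% of all windows. Its shorter core TGACG, which each full element also contains, stood in 5 of 8 against 17.8% of all. In Fos this core began 66 and 129 bases before the start, and Junb held it at 1 place. The CArG box of serum response factor was found in 1 of 8, Zfp36, and in 1.47% of all windows. The EGR site GCGNGGGCG was found in 2 of 8, Btg2 and Zfp36, against 4.7% of all, and TATAAA in 1 of 8, Fos, against 12.4%. None of the 8 held the AP-1 site TGANTCA, which 6.75% of all windows did. These are matches of letters in a short window, not sites shown to be occupied. All 250 bases of the Zfp36 window, with its CArG box and EGR site, lie in annotated exons of that gene. The TGACG core of Atf3, 7 bases before the start, lies in an annotated exon too.

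The 12 libraries held between 15122520 and 19384076 counts. Hepatocyte markers were high in each (Alb at a counts-per-million value, CPM, of 52500 or above), as a whole liver should show. Library 4F of the Sham-Ad lib group had the highest value of all 12 libraries for 6 of the 10 members, and it was the sample far from the rest of its group at 473 of the 13054 genes, the most of any library. Library 11F of the VSG group came close behind at 447 genes and had the lowest count total, and 10F was next at 227. Each library, 11F included, was left out in turn. Values that rest on 4F are given with and without it. The S numbers in the column names ran in 1 block per group, so that whatever they order cannot be told apart from the treatment.

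**Figure D1:**
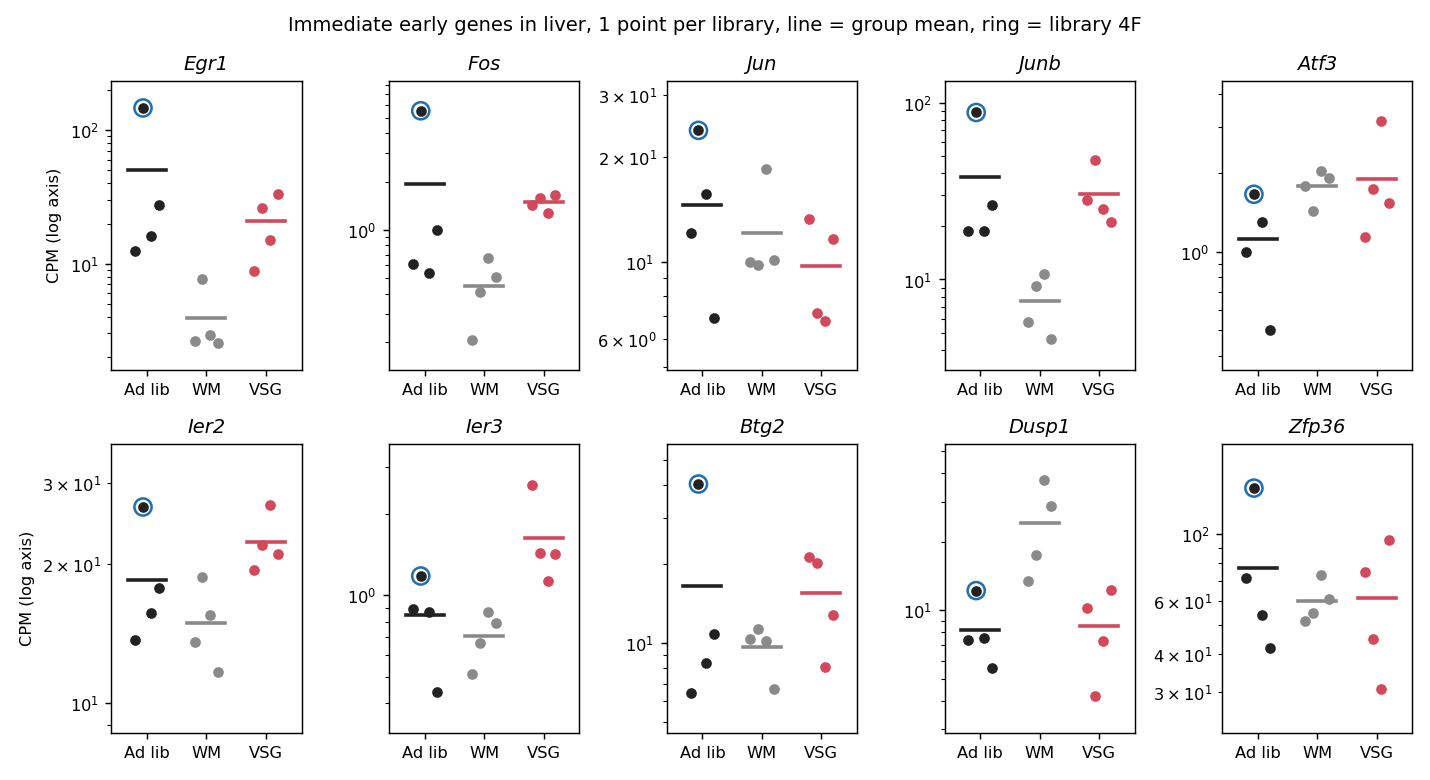
CPM (log axis) of each immediate early gene, with 1 point per liver library in the Sham-Ad lib (black), Sham-WM (grey) and VSG (red) groups and a line at each group mean. Library 4F (ringed) is the highest of the Sham-Ad lib group for all 10 genes, the Sham-WM points of Egr1 and Junb lie below all others, and those of Dusp1 lie above all others.

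Egr1 (ENSMUSG00000038418), a zinc finger transcription factor, lies at mm10 chromosome 18, 34859823 to 34864984, plus strand, with 2 or 3 exons. Its level in the Sham-WM livers was 2.53, 2.65, 2.91 and 7.63 CPM. In the VSG livers it was 8.84, 15.1, 26.3 and 33.2 CPM. In the Sham-Ad lib livers it was 12.4, 16.2, 27.5 and 147 CPM, the last in 4F. Every Sham-WM liver was thus below every liver of the other groups, while VSG and Sham-Ad lib overlapped. Mean levels were 3.93 ± 2.47 CPM in Sham-WM, 20.9 ± 10.9 in VSG and 50.9 ± 64.6 in Sham-Ad lib (SD, n = 4), and 18.7 ± 7.89 in Sham-Ad lib without 4F (SD, n = 3). The log2 fold change of Sham-WM against Sham-Ad lib was -3.69 (SE 0.78), rank 13 from the lowest of 13054, between neighbours at -3.72 and -3.66, and it was -2.24 without 4F. Against Sham-WM the VSG level was higher by 2.41 (SE 0.76) on the log2 scale, and against Sham-Ad lib it was -1.28 (SE 0.69), which changed sign to 0.16 without 4F.

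Junb and Fos, which pair to form AP-1 dimers, were, like Egr1, lowest in Sham-WM. Junb (ENSMUSG00000052837) lies at mm10 chromosome 8, 84974484 to 84978718, minus strand, with 1 or 2 exons. It stood at 4.62, 5.71, 9.22 and 10.7 CPM in Sham-WM and at 21.2, 25.1, 28.0 and 47.1 CPM in VSG. In Sham-Ad lib it stood at 18.8, 18.8, 26.4 and 88.0 CPM, the last again in 4F. The 4 Sham-WM livers were below all 8 others, and VSG overlapped Sham-Ad lib. Mean levels were 7.55 ± 2.86 CPM after food restriction, 30.3 ± 11.5 after VSG and 38.0 ± 33.5 with free feeding (SD, n = 4), the last 21.3 ± 4.4 without 4F (SD, n = 3). Junb was 4.01-fold higher in VSG than in Sham-WM (log2 fold change 2.01, SE 0.49, edgeR adjusted p = 0.0107), and it passed the threshold in all 12 fits that left out 1 library. The description of Sham-WM against Sham-Ad lib gave a log2 fold change of -2.33 (SE 0.49), and -1.49 without 4F. An exon of Junb overlaps the span of Prdx2, a peroxiredoxin gene on the opposite strand. The strand setting of the counting is not given in the sources used here. Prdx2 itself had a log2 fold change of 0.55 (SE 0.2, edgeR adjusted p = 0.0537) in VSG against Sham-WM, and its part in the Junb value was not tested.

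Fos (ENSMUSG00000021250; mm10 chromosome 12, 85473890 to 85477273, plus strand, 3 or 4 exons) was scarce, with 4 to 13 counts in a Sham-WM library, 17 to 31 in a VSG library and 10 to 103 in a Sham-Ad lib library. Its level was 0.204, 0.41, 0.507 and 0.663 CPM in Sham-WM and 1.28, 1.43, 1.58 and 1.65 CPM in VSG, without overlap. In Sham-Ad lib it was 0.541, 0.614, 1.00 and 5.53 CPM, with 4F alone above the VSG range. The VSG livers lay in a narrow band, and 3 of the 4 Sham-Ad lib livers lay under it. The log2 fold change of VSG against Sham-WM was 1.73 (SE 0.70, 95% interval 0.23 to 3.23), which did not pass the threshold (edgeR adjusted p = 0.0809), whereas the edgeR adjusted p was 0.00447 when 4F was left out. Library 4F is in neither group compared, and the log2 fold change was 1.73 without it too, but all groups share 1 estimate of the spread. Fos passed in 1 of the 12 fits that left out 1 library, and also in the fit of the 2 compared groups alone. Sham-WM against Sham-Ad lib gave -2.10 (SE 0.69), and -0.67 without 4F.

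Jun and Atf3, the remaining bZIP factors of the list, were not lowest in Sham-WM. Jun (ENSMUSG00000052684; mm10 chromosome 4, 95049034 to 95052222, minus strand, 1 exon), the main partner of Fos, was at 6.90, 12.1, 15.6 and 23.8 CPM in Sham-Ad lib and at 9.78, 9.99, 10.1 and 18.5 CPM in Sham-WM. It was at 6.78, 7.15, 11.6 and 13.3 CPM in VSG, and all 3 groups overlapped. VSG against Sham-WM gave a log2 fold change of -0.31 (95% interval -1.06 to 0.43, edgeR adjusted p = 0.525). Atf3 (ENSMUSG00000026628; mm10 chromosome 1, 191170296 to 191218039, minus strand), a stress-induced repressor, was at 1.43 to 2.04 CPM in the Sham-WM livers, 1.14 to 3.16 after VSG and 0.502 to 1.66 with free feeding. These ranges overlapped too, and no Atf3 difference passed the threshold (0.73, SE 0.37, edgeR adjusted p = 0.242 for VSG against Sham-Ad lib, and 0.06, adjusted p = 0.911, for VSG against Sham-WM).

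Among the early genes that do not encode DNA-binding factors of these families, Ier2 and Ier3 were highest in VSG. Ier2 (ENSMUSG00000053560; mm10 chromosome 8, 84661331 to 84662852, minus strand, 1 exon), a nuclear protein induced with Fos, was at 11.7, 13.6, 15.5 and 18.8 CPM in Sham-WM and at 19.4, 21.1, 22.0 and 26.9 CPM in VSG. The groups did not overlap, but they nearly touched. In Sham-Ad lib it was at 13.7, 15.7, 17.8 and 26.6 CPM. The rise in VSG over Sham-WM was 1.5-fold (log2 fold change 0.58, SE 0.20, edgeR adjusted p = 0.0456). It passed in 3 of the 12 fits that left out 1 library, those without 3F, 4F or 9F, and the adjusted p reached 0.129 in the others.

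Ier3 (ENSMUSG00000003541; mm10 chromosome 17, 35821684 to 35822923, plus strand, 2 exons), a regulator of cell survival under NF-kappaB, was scarce at 7 to 43 counts a library. It was at 0.51, 0.666, 0.788 and 0.867 CPM in Sham-WM and at 1.13, 1.42, 1.43 and 2.57 CPM in VSG. In Sham-Ad lib it was at 0.439, 0.866, 0.893 and 1.18 CPM. Every VSG liver was above every Sham-WM liver, and library 1F was the highest. Ier3 was 2.31-fold higher in VSG than in Sham-WM (log2 fold change 1.21, SE 0.35, edgeR adjusted p = 0.0236), and it passed in 8 of the 12 fits without 1 library, the exceptions being those without 1F, 2F, 9F or 16F (adjusted p up to 0.083).

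Btg2 (ENSMUSG00000020423; mm10 chromosome 1, 134075170 to 134079120, minus strand, 2 exons), an antiproliferative gene, was at 6.70, 10.2, 10.4 and 11.3 CPM in Sham-WM and at 8.13, 12.8, 20.2 and 21.2 CPM in VSG. In Sham-Ad lib it was at 6.47, 8.38, 10.8 and 40.4 CPM, the last in 4F. The 3 groups overlapped, and VSG against Sham-WM did not pass (log2 fold change 0.70, SE 0.50, edgeR adjusted p = 0.313).

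Dusp1 ran the other way. Dusp1 (ENSMUSG00000024190; mm10 chromosome 17, 26505590 to 26562128, minus strand, 2 to 6 exons) encodes a nuclear phosphatase that switches MAP kinases off. Its level was 13.5, 17.5, 28.6 and 37.2 CPM in Sham-WM, against 4.19, 7.31, 10.2 and 12.3 CPM in VSG and 5.58, 7.37, 7.57 and 12.2 CPM in Sham-Ad lib. The 4 Sham-WM livers were above all 8 others, and VSG overlapped Sham-Ad lib. Mean levels were 24.2 ± 10.8 CPM after food restriction, 8.50 ± 3.54 after VSG and 8.19 ± 2.84 with free feeding (SD, n = 4). Dusp1 was 2.85-fold lower in VSG than in Sham-WM (log2 fold change -1.51, SE 0.36, edgeR adjusted p = 0.00996), and this call held in all 12 fits without 1 library. The description of Sham-WM against Sham-Ad lib was a log2 fold change of 1.56 (SE 0.36), and VSG against Sham-Ad lib gave 0.05 (SE 0.37, edgeR adjusted p = 0.945). An exon of Dusp1 overlaps the span of Ergic1, a gene of the secretory pathway on the opposite strand. Ergic1 had a log2 fold change of -0.29 (SE 0.09, edgeR adjusted p = 0.0369) in VSG against Sham-WM, and its part in the Dusp1 value was not tested.

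Zfp36 (ENSMUSG00000044786; mm10 chromosome 7, 28376784 to 28380253, minus strand, 1 or 2 exons), which destabilises AU-rich mRNAs, showed no such pattern. It was at 51.5, 54.7, 60.8 and 73.3 CPM in Sham-WM and at 30.7, 44.7, 74.8 and 95.5 CPM in VSG. In Sham-Ad lib it was at 41.8, 53.8, 71.2 and 142 CPM, the last in 4F. The Sham-WM values were the closest together and lay inside the range of each other group (VSG against Sham-WM 0.03 on the log2 scale, 95% interval -0.77 to 0.83, edgeR adjusted p = 0.956).

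Divided by exonic length, so that genes can be set against each other, the order of mean levels in Sham-Ad lib was Zfp36 at 22.2 CPM per kb, Junb at 16.5, Ier2 at 12.1, Egr1 at 11.4, Btg2 at 6.02, Jun at 4.58, Dusp1 at 2.47, and Fos, Ier3 and Atf3 between 0.52 and 0.816. Without 4F, Egr1 was at 4.17 and Junb at 9.26 CPM per kb, so that Ier2 at 10.3 came next after Zfp36 at 16.0. In Sham-WM, Dusp1 at 7.31 CPM per kb came next after Zfp36 and Ier2, and Egr1 at 0.876 was just above Atf3 at 0.831. Between livers of 1 group, Egr1 varied 3.01-fold in the Sham-WM group, 3.75-fold after VSG and 11.9-fold with free feeding (2.22-fold without 4F), while Fos varied 1.29-fold in VSG and 10.2-fold in Sham-Ad lib (1.85-fold without 4F).

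The direct comparison of VSG with Sham-WM, which asks whether equal weight loss by surgery and by food restriction leaves the same liver, separated the members into 3 sorts. Junb, Ier2 and Ier3 were higher in VSG, Dusp1 was lower, and Fos, Jun, Atf3, Btg2 and Zfp36 did not pass, which makes 4 of the 9 members tested (Egr1 is set aside). Of all 13054 genes 26.9% passed in this comparison, 15.0% higher and 11.9% lower, so a large part of the transcriptome differed as well. DESeq2 also called 4 of the 9, and the groups did not overlap for 5 of the 9 (Fos, Junb, Ier2 and Ier3 higher, Dusp1 lower) against 26.2% of all genes. The median log2 fold change was 0.58 over the 9 members, 0.64 with Egr1, and 0.03 over all genes tested. The count of 4 went to 2 without 2F, 16F or 1F and was 3 to 5 without any other library. It was 0 when 2 factors of unwanted variation estimated from the replicates (RUVs) were added, a fit in which 3.26% of all genes passed and in which Junb kept a log2 fold change of 0.98 (edgeR adjusted p = 0.307) and Dusp1 one of -1.2 (adjusted p = 0.303). With 2 factors estimated from residuals (RUVr) the count was 6 of 9, and 42.1% of all genes passed.

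Between VSG and Sham-Ad lib, which compares the gastrectomy with sham surgery in mice without food restriction, no member passed the threshold. The edgeR count was 0 of the 9 members tested, and DESeq2 also called 0, with no adjusted p for Fos, while 1 member, Ier3, had an unadjusted p under 0.05 (0.0167, log2 fold change 0.94, SE 0.35, adjusted p = 0.127). The background was 0.751% of all genes in this fit, but it moved with the setting, to 8.4% in DESeq2, 23.1% with RUVr, 8.2% without 18F and 0% without 6F, 2F, 9F or 1F. The groups did not overlap for 0 of 10 members against 9.21% of all genes. The median log2 fold change was -0.2 over the 10 members and 0.03 over all genes. This comparison turned on 4F: without it the median was 0.51, 9 of 10 members had positive values, Fos reached 1.05, Btg2 0.87 and Junb 0.51, and still 0 passed in edgeR against 6.82% of all genes, although 5 had an unadjusted p under 0.05.

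For Sham-WM against Sham-Ad lib, the contrast that chose Egr1 and that shares its control livers with the preceding one, 3 of 10 members (Egr1 and Junb lower, Dusp1 higher) were past the threshold beside 6.99% of all genes. The groups did not overlap for 3 of 10, beside 17.6% of all genes, and the median log2 fold change was -0.34 over the members and 0 over all genes. Without 4F the members' median was 0, and Btg2 (0.18), Zfp36 (0.11) and Jun (0.07) were above 0. Nothing is read from these counts. The count was 0 without 16F and 1 without 15F.

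**Figure D2:**
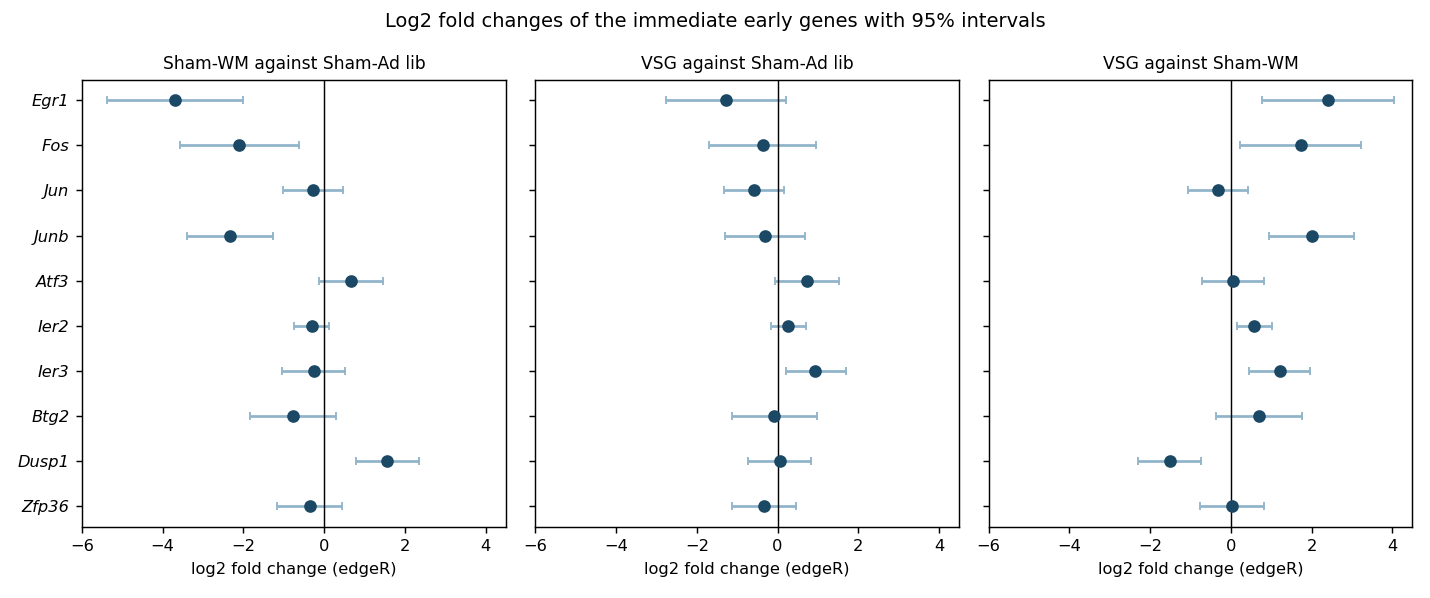
Log2 fold change (x axis, edgeR, points) of each immediate early gene with its 95% interval (bars) in the 3 comparisons. In Sham-WM against Sham-Ad lib Egr1 stands at -3.69 and Dusp1 at 1.56, in VSG against Sham-WM they stand at 2.41 and -1.51, and in VSG against Sham-Ad lib all points except Egr1 lie between -0.59 and 0.94.

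The choice of Egr1 used a difference between group means, whereas the values below describe how the members varied among livers of the same group. The 2 are not independent, since 4F entered both. For each gene the group mean of log2 CPM was subtracted and Pearson's r was taken over the 12 livers, so that the points of 2 genes share the mouse, the library and its depth. The median r over the 45 member pairs was 0.44 (range -0.02 to 0.87, 44 pairs positive), beside 0.001 over all gene pairs, of which 15.3% reached the members' median. Most of this came with 4F: without it the median was 0.08 (range -0.73 to 0.8), and 43.7% of all gene pairs reached that value.

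Within the 10 genes there were 2 subsets, picked out after their values were seen, so that high r within each follows in part from the choice. Leaving out 4F reuses the other libraries and is no separate check of the subsets. Egr1, Fos, Junb, Ier2 and Btg2 had a median r of 0.78 with each other, which dropped to 0.33 without 4F. Jun, Ier3, Dusp1 and Zfp36 had a median r of 0.75 over their 6 pairs, and 0.7 without 4F (range 0.56 to 0.8), so that these 4 genes tended to be high in the same livers of a group whether or not 4F was included. Between the subsets the median was 0.36 with 4F and -0.16 without it, and Atf3 had a median r of 0.24 with the other 9 genes, or -0.25 without 4F. Dusp1 and Zfp36, which encode brakes on the response, were thus closer to Jun between mice than to Egr1 (without 4F, r with Egr1 was negative for both).

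**Figure D3:**
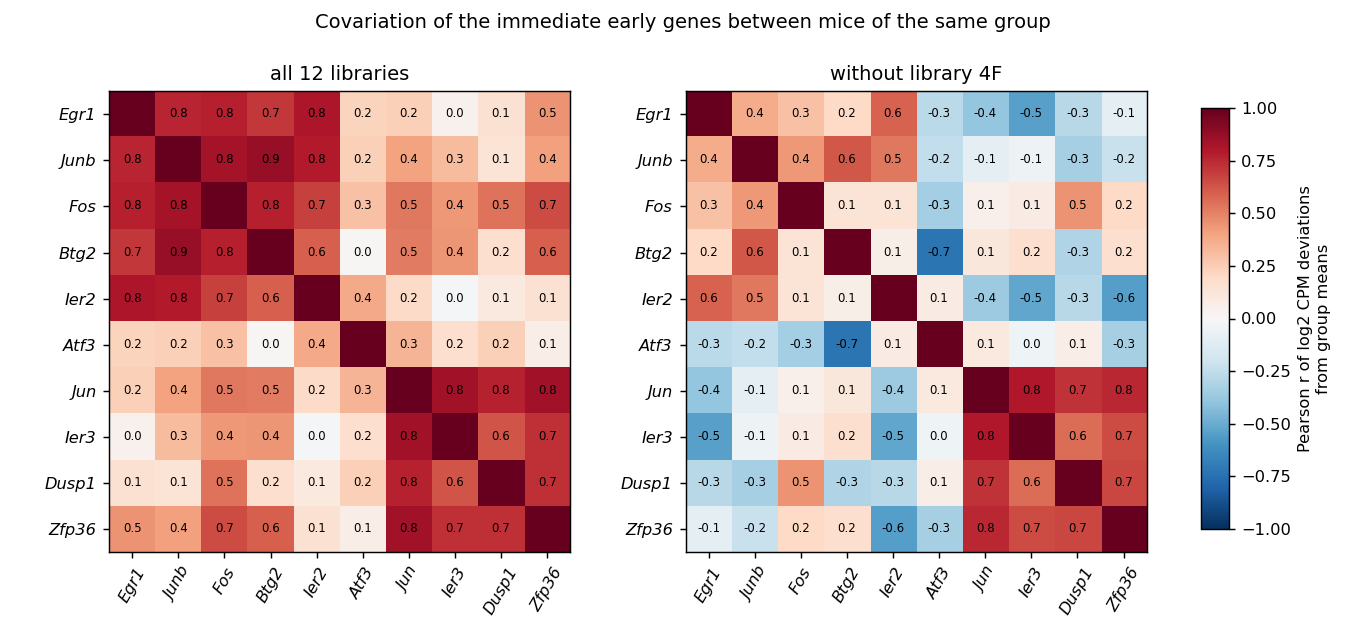
Pearson's r between immediate early genes, from log2 CPM deviations from the group means, over all 12 libraries (left) and without library 4F (right), with r printed in each cell. The block of Jun, Ier3, Dusp1 and Zfp36 at the lower right stays at 0.56 to 0.8 without 4F, whereas the block of Egr1, Junb, Fos, Btg2 and Ier2 at the upper left drops from a median of 0.78 to 0.33.

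The genes outside the list with the highest mean r with the 10 members over the 12 livers were Rbm45 (0.64), Map3k13 (0.63), the AP-1 gene Fosl2 (0.62), Pak1 and Abtb2 (0.61 each) and Ablim1 (0.60). Without 4F these values were 0.15 to 0.32. Those most like Egr1 were Ift122 (r = 0.95), Stx5a (0.92) and Ift80 (0.91), at 0.88, 0.85 and 0.90 without 4F. Both sets were picked for the highest r among all genes above a set level, so high values follow from the choice. The values without 4F reuse the other libraries and are no separate check.

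Other genes of the response were taken from 3 lists. Of 20 other early transcription factors, 15 could be tested, and Fosb, Fosl1, Egr2, Egr3 and Nr4a3 could not, with at most 21 counts in any library. In VSG against Sham-WM, 6 of the 15 (40%, beside 26.9% of all genes) were higher and 0 lower (unadjusted 8, DESeq2 7), with a list median of 0.56 on the log2 scale. The largest were Maff, a small Maf factor, at 1.68 (SE 0.30, edgeR adjusted p = 0.00245), Myc at 1.50 (adjusted p = 0.048), the EGR corepressor Nab2 at 1.21 (adjusted p = 0.0118) and Klf4 at 1.03 (adjusted p = 0.0327). Mean Maff was 2.77 ± 1.34 CPM in the Sham-WM livers, beside 8.92 ± 1.87 after VSG and 9.09 ± 1.19 with free feeding (SD, n = 4), and so was low in the same group as Egr1 and Junb. The count of 6 was 2 without 16F or 1F and 3 without 15F. Against Sham-Ad lib 0 of the 15 passed in edgeR, with 5 at an unadjusted p under 0.05 and 3 in DESeq2, and 4 passed in edgeR without 4F.

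Of 36 other early feedback and growth-arrest genes, all tested, 6 were higher and 2 lower in VSG than in Sham-WM, with a median of 0.17. This was 22.2% of the list, below the 26.9% of all genes, so the count is no result about the list. The NF-kappaB pathway genes Tnfaip3 (log2 fold change 1.90, SE 0.43, edgeR adjusted p = 0.00745), Nfkbiz (1.86, SE 0.45, adjusted p = 0.0105) and Nfkbia (1.03, SE 0.15, adjusted p = 0.00107) rose, as did the cytokine signalling inhibitor Socs3 (1.78, SE 0.58, adjusted p = 0.0365). Nfkbia was also the gene of this list that passed against Sham-Ad lib (0.75, SE 0.15, edgeR adjusted p = 0.0459; DESeq2 called 5), but the count was 0 without 3F, 6F, 10F, 2F, 9F, 15F, 16F, 1F or 8F, 4 without 18F and 7 without 4F.

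The last list held 32 receptors, kinases and factors that are present before a stimulus and lead to these promoters. In VSG against Sham-WM, 2 were higher and 7 lower, with a median of -0.14. The 28.1% of the list that passed was near the 26.9% of all genes, so this count too is no result about the list. Mrtfb, a coactivator of serum response factor, was lower by -0.98 (SE 0.17, edgeR adjusted p = 0.00214) and the cyclic AMP factor Crem by -0.79 (SE 0.19, adjusted p = 0.0109), whereas the kinase Rps6ka1 was higher by 0.78 (SE 0.22, adjusted p = 0.0229). The count of 9 was 5 without 16F. Against Sham-Ad lib 0 of 32 passed in edgeR and in DESeq2, with 6 at an unadjusted p under 0.05.

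**Figure D4:**
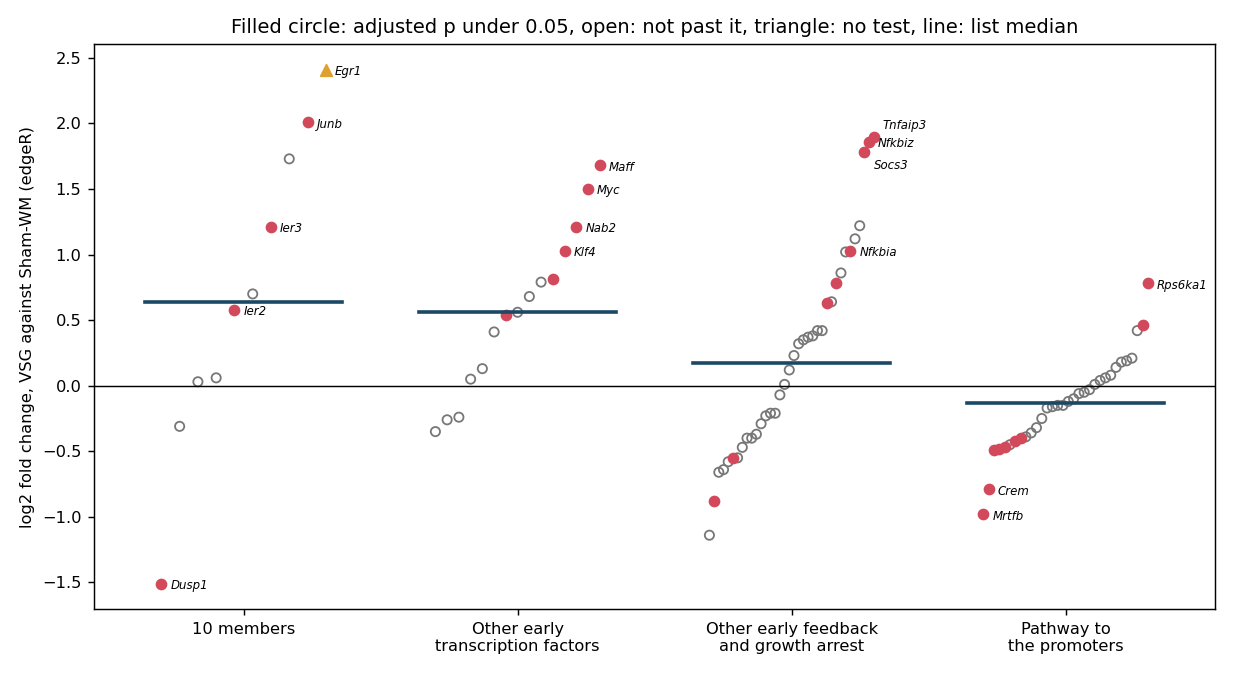
Log2 fold change of VSG against Sham-WM (y axis, edgeR) for the 10 members and the 3 lists of related genes, 1 point per gene tested, with a line at each list's median. Filled circles passed an adjusted p of 0.05, open circles did not, and the triangle is Egr1, which has no test here. The list medians, from left to right, are 0.64 for the members (0.58 without Egr1), 0.56, 0.17 and -0.14.

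Many markers of immune cells were higher in VSG than in Sham-WM, and fewer passed in edgeR against Sham-Ad lib. Summed neutrophil markers ran from 22.2 to 636 CPM in VSG (22.2 in 18F, 102 in 11F, 257 in 8F and 636 in 1F), against 2.66 to 3.72 in Sham-WM and 1.3 to 16.3 in Sham-Ad lib, where up to 2 of the 6 markers were at 0. In VSG against Sham-WM, 5 of 5 neutrophil markers tested, 4 of 4 monocyte, 5 of 6 Kupffer cell, 3 of 4 T and NK cell and 1 of 3 B and plasma cell markers were higher, beside 15.0% of all genes. Against Sham-Ad lib these counts were 3, 1, 2, 0 and 1 in edgeR, where 0.751% of all genes passed. In DESeq2 they were 5, 4, 5, 0 and 1, where 8.4% passed. Summed monocyte markers were at 9.9 CPM or above in VSG and at 1.99 to 3.36 in Sham-WM, and Kupffer cell markers at 546 to 1360 and 185 to 390 CPM. In Sham-Ad lib the 2 sums were at 1.79 to 11.7 and 279 to 598 CPM and overlapped VSG. The highest Sham-Ad lib value of each was in 4F, above VSG library 18F. In VSG against Sham-WM, the hepatocyte markers Alb and Cps1 were lower and the other 4 did not pass, with a list median of 0.02. The hepatocyte sum, most of it Alb, was 78700 to 123000 against 121000 to 149000 CPM. Lower too were 2 of 6 stellate cell and 1 of 6 endothelial markers, beside 11.9% of all genes, while 0 of 4 cholangiocyte markers passed in edgeR (1 unadjusted, 1 in DESeq2). The endothelial count, 16.7% of its list, is near that share and is no result about those cells. Library 1F, highest in neutrophil markers, was also highest in Jun, Ier3 and Btg2 among the VSG livers, but lowest in Egr1. Among these livers Junb was highest in 8F, and Ier2 and Atf3 in 11F. Egr1, Fos, Dusp1 and Zfp36 were highest in 18F, the VSG liver lowest in neutrophil markers. Library 4F ranked first of the 12 in summed stellate cell markers at 434 CPM and highest of the Sham groups in neutrophil markers at 16.3 CPM. The part of these cells in the members' values was not tested, and in whole liver a change in the number of cells of a type and a change in RNA per cell cannot be told apart.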

How the data were processed

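RNA-seq of 12 mouse livers was analysed. Per the labels, poly(A) libraries from a directional kit were aligned to mm10 with TopHat2 2.1.1 and counted with featureCounts, and the authors deposited raw counts per Ensembl gene. The strand setting and annotation release are not given in the sources used here. Each column took its group from the sample title with its animal number; the description field pairs columns with other titles and was tried as an alternative. Symbols for 45143 of 46078 rows came from GENCODE.

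Counts were fitted in edgeR 4.0.16 (R 4.3.3) with TMM factors, filterByExpr (minimum count 10) and the quasi-likelihood test over all 12 libraries, and p-values were adjusted by Benjamini-Hochberg over 13054 genes, with a threshold of 0.05. CPM used the same factors. Intervals are 95%. Within-group r used log2 CPM with a prior count of 2. Depth was 15122520 to 19384076 counts; genes under about 1 CPM, such as Fos, rest on few reads. The method was tested on simulated data. Alternatives were DESeq2 1.42.0, other scaling, no filter, the compared groups alone, RUVs, RUVr and leaving out each library. Replicate libraries differed by more than counting noise.

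The members and lists were chosen with earlier results of these data known. Named genes were all members, up to 4 past the threshold per list and comparison, and the genes most like the members; 1 gene that the rule names is not reported here.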

Additional observations from a re-analysis of the deposited data

Results flagged for a closer look

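A Dixon criterion for 4 values set 1 liver apart from the other 3 of its group in 6 of 30 combinations of member and group, where chance gives about 1 in 20. In 4 of these the liver was 4F of Sham-Ad lib: Egr1 at 147 CPM against 12.4 to 27.5 in the others, Junb at 88.0 against 18.8 to 26.4, Btg2 at 40.4 against 6.47 to 10.8, and Fos at 5.53 against 0.541 to 1.00. In Sham-WM, 9F stood apart for Egr1 at 7.63 CPM against 2.53 to 2.91, and 15F for Jun at 18.5 CPM against 9.78 to 10.1. Egr1 in 9F was still below the lowest VSG liver.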

How the results depend on the processing

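Junb and Dusp1 in VSG against Sham-WM passed the threshold in each fit that left out 1 library, under other scalings, without the filter, in DESeq2 and in the 2-group fit, but not with RUVs or under the description-field grouping. The count of members past the threshold there, Egr1 included, ran from 2 to 6 over fits without 1 library; it was 0 with RUVs (median log2 fold change 0.23, Atf3 -0.08, Btg2 -0.39). In Sham-WM against Sham-Ad lib the count ran from 0 to 3. Without 1 library the members' median in VSG against Sham-Ad lib ran from -0.39 to 0.51, and without 4F the values changed sign to 0.16 for Egr1, 1.05 for Fos, 0.51 for Junb, 0.87 for Btg2 and 0.14 for Zfp36. Over the 12 fits without 1 library, values there ran from -1.61 to 0.16 for Egr1, -0.68 to 1.05 for Fos, -0.65 to 0.51 for Junb, -0.35 to 0.87 for Btg2, -0.19 to 0.31 for Dusp1 and -0.62 to 0.14 for Zfp36, and with RUVr Fos was 0.04 and Btg2 0.15. In VSG against Sham-WM, Atf3 ran from -0.28 to 0.24 and Zfp36 from -0.26 to 0.26. The cause of these changes was not tested.

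Counts over the lists in VSG against Sham-Ad lib ran from 0 to 4 for other transcription factors (3 in DESeq2) and from 0 to 7 for feedback genes (5 in DESeq2), and in VSG against Sham-WM from 2 to 7 for transcription factors and from 5 to 10 for the pathway. The median within-group r ran from 0.08 to 0.56 without 1 library, was 0.34 by Spearman and 0.09 without 4F and 10F, the pair of libraries farthest from the median, an alternative chosen after seeing the data.

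Grouping by the description field gave member counts of 0 in all 3 comparisons, and edgeR called 0 of all 13054 genes in each (465, 158 and 715 genes at an unadjusted p under 0.05, where the grouping by title had 3149, 5268 and 2814, in the order VSG against Sham-Ad lib, VSG against Sham-WM and Sham-WM against Sham-Ad lib). In VSG against Sham-WM the median was -0.28 and the values were -1.79 for Egr1, -1.05 for Fos, -1.15 for Junb, -0.16 for Atf3, -0.30 for Ier2, -0.66 for Btg2, 0.06 for Dusp1 and -0.01 for Zfp36. In VSG against Sham-Ad lib they were 0.25 for Egr1, 0.18 for Fos, 0.15 for Jun, 0.14 for Junb, -0.47 for Atf3, -0.08 for Ier2, 0.50 for Btg2, -0.87 for Dusp1 and 0.50 for Zfp36, and in Sham-WM against Sham-Ad lib the median was 0.46, with 2.04 for Egr1, 1.29 for Junb and -0.93 for Dusp1. No paired analysis was possible because the groups share no animal number.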
